A study of Mus musculus with 11 samples.

Results

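Potassium channel genes were followed in the hippocampus of CD and FD F1 mice. They were taken as the protein-coding genes of the mouse annotation (GENCODE, build GRCm38) whose symbol starts with Kcn. Of 94 such genes in the count tables, 87 had at least 10 counts in total over the 11 mice, among 20589 genes of any kind with that many. The 87 genes comprised 72 channel subunits, 14 auxiliary subunits that bind a channel without forming its pore, and Kcnrg, which encodes a regulator of Kv channel assembly.

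The mice were wildtype F1 animals of the cross 129S6/SvEv x C57BL/6J, 14 weeks old, and they differed in the diet of their mothers before conception. CD dams received chow with 2.3 mg folic acid per kg and FD dams chow with 40 mg per kg for 6 weeks until mating, and all dams ate the control chow from mating onwards. RNA of the whole hippocampus was sequenced separately for 6 CD mice (3 male, 3 female) and 5 FD mice (2 male, 3 female). The comparison of FD with CD mice asked whether the maternal diet left a mark on hippocampal transcription, and males were compared with females within the same animals. The labels do not give litters, so that the n is one of mice, and littermates may be among them.

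Potassium channels let potassium ions leave the cell and thereby set the resting potential, end the action potential and limit repetitive firing. Voltage-gated Kv channels open on depolarisation, calcium- and sodium-activated channels after firing, inward rectifiers (Kir) carry current mostly near rest, and 2-pore-domain (K2P) channels leak potassium at all voltages. In the hippocampus, A-type channels of the Kv4 class act in pyramidal cell dendrites, the M-current of the Kv7 class damps excitability, and Kir channels of astrocytes clear extracellular potassium.

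What makes a protein a potassium channel is the selectivity filter, a short loop with a glycine-tyrosine-glycine or glycine-phenylalanine-glycine signature. The filter codons were read from the longest coding sequence of each gene in the GENCODE transcripts. The motif searched in frame on the coding strand was a first codon ACN, TCN or AGN, any second codon, then GGN, TAN or TTN, and GGN. All 72 channel subunits held it, and 0 of the 14 auxiliary subunits and not Kcnrg. The codon AGN was added after a first search without it missed most Kcnh genes. For comparison, 3.68% of 20883 protein-coding genes held these letters. Of the 11 K2P genes, whose subunits carry a pair of pore loops, 8 held the motif more than once. Among the other channel subunits only Kcna6 of the Kv1 class did so, with its first match at codon 240 of 529. The following sequences show the filter of the most abundant subunit of several classes, with Kcnn1, the next in level, for the SK class, chosen to show how the codons differ while the signature stays, with the 15 motif bases in capitals and 12 coding bases on either side (5′ to 3′ on the coding strand, GRCm38):
Kcna1 (Kv1, chr6:126642216-126642254, minus strand): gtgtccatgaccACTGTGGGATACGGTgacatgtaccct
Kcnd2 (Kv4, split by an intron): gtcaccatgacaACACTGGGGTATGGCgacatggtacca
Kcnf1 (silent Kv, chr12:17175049-17175087, minus strand): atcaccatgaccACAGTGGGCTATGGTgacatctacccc
Kcnh3 (EAG, ERG and ELK, chr15:99232917-99232955, plus strand): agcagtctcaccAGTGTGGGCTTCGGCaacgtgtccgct
Kcnma1 (BK, chr14:23528401-23528439, minus strand): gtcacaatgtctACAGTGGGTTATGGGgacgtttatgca
Kcnn1 (SK, chr8:70850645-70850683, minus strand): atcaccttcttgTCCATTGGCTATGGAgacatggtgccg
Kcnk1 (K2P, split by an intron): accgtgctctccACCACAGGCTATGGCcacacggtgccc

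Between 11737554 and 44447006 reads per mouse were counted on genes, and the 87 genes took 0.511% to 0.539% of them. Levels are counts scaled to the normalised library total (CPM). A count of 0 allows up to 3 counts, which at these depths is 0.0675 to 0.256 CPM, and this limit covers counting error only. Xist, which is transcribed from the inactive X chromosome of females, had at least 7426 counts in every female and at most 27 in every male. Neuronal and glial markers were present in every mouse, and the summed markers of hippocampal neurons ran from 3243 to 3803 CPM. Snap25 alone had 2639 to 3129 CPM, so that this sum mostly reflects that gene. Libraries of 3 females stood apart: in CD female 1, CD female 3 and FD female 3, 15.1% to 16.01% of the reads aligned to more than 1 place, against 13.7% to 14.5% in the other 8. The main results that rest on these libraries are also given for the other 8.

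Levels of the genes are given as CPM divided by the exonic length in kb (CPM per kb), so that genes of different length can be compared. For 7 genes, over 10% of the exonic length overlaps another gene, with 49.1% for Kcnj13, 39.6% for Kcna6, 31.5% for Kcnmb4 and 31.1% for Kcnj3. The part of these overlaps in the levels was not tested. A mean of at least 1 CPM was reached by 73 of the 87 genes. The 3 most abundant genes were Kcnab2, Kcnip2 and Kcna1, with 27.1% of the summed level, and the 10 most abundant genes held 53.9%. Among the genes of at least 1 CPM the highest level was 354 times the lowest. Each gene's level in CD and FD mice is drawn by subfamily in the plot of levels.

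**Figure D1:**
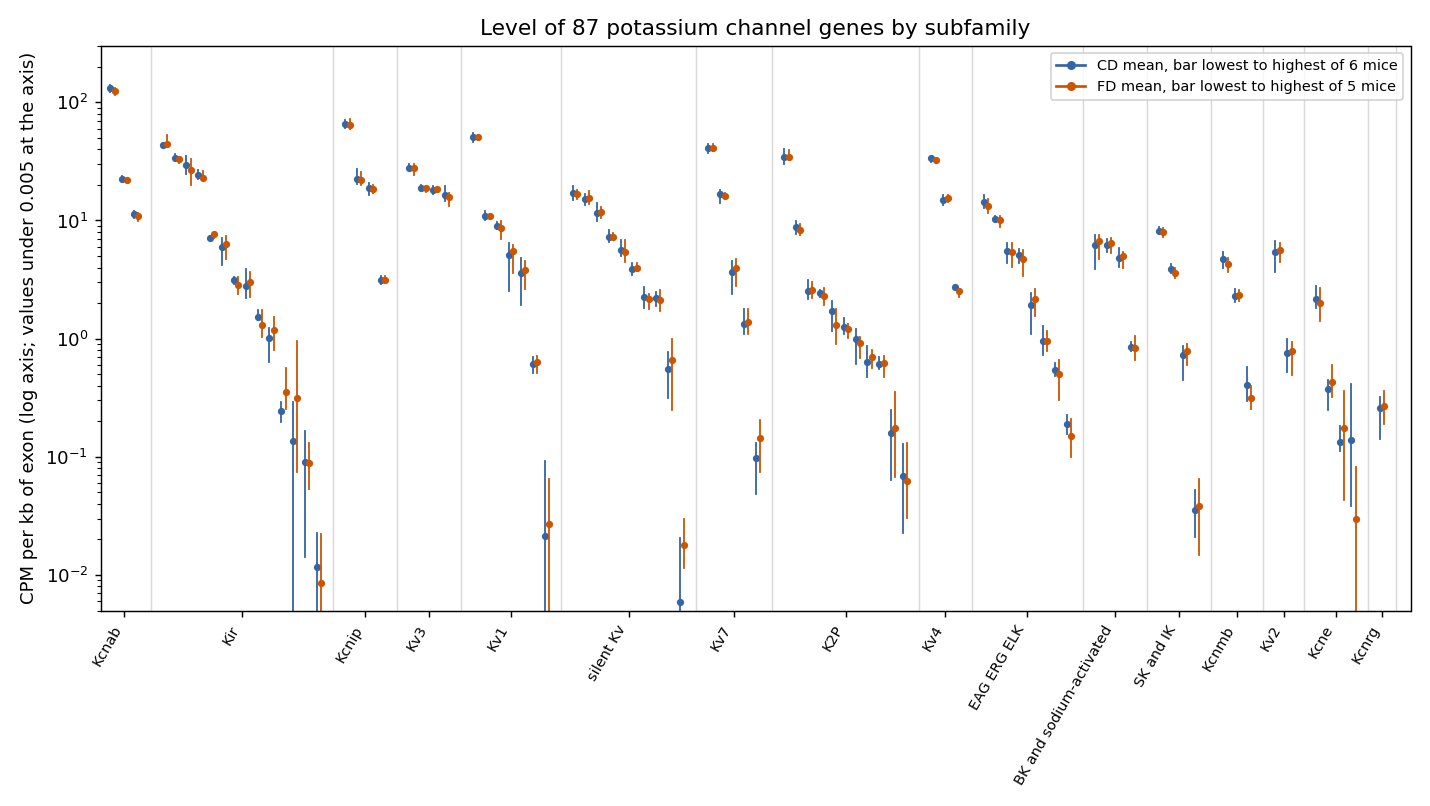
Level of the 87 potassium channel genes by subfamily, in CPM per kb of exon on a log axis, with the mean (point) and the range from the lowest to the highest mouse (bar) of 6 CD mice (blue) and 5 FD mice (orange). CD and FD means lie beside each other for the abundant genes, and the bars lengthen among the genes below 1 CPM per kb. Values under 0.005 are drawn at the axis.

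Among the voltage-gated subunits, Kcna1, which makes the axonal Kv1.1 channel, had the highest level at 50.9 ± 2.23 CPM per kb (SD, n = 11 mice). Its neighbours in the Kv1 class followed at a distance, with Kcna6 at 10.9 ± 0.608, Kcna4 (Kv1.4, an A-type subunit) at 8.82 ± 0.983 and Kcna2 (Kv1.2) at 5.25 ± 1.44. Kcna10 was near the lower end at 0.0241 ± 0.0311, with counts of 0 in 5 mice. The Kv3 genes, which serve fast-spiking neurons, were abundant, with Kcnc4 at 16.2 ± 1.78, Kcnc2 at 18.4 ± 0.839 and Kcnc1 at 18.8 ± 0.798. Kcnc1 and Kcnc2 did not differ beyond their spread.

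In the Kv4 class of A-type subunits, Kcnd2 had 33.2 ± 1.23 CPM per kb, Kcnd3 15.2 ± 0.961 and Kcnd1 2.65 ± 0.169. Of the silent Kv genes, whose subunits conduct only in company of Kv2, Kcnf1 was highest at 16.9 ± 1.42 and Kcnv2 lowest at 0.0114 ± 0.00965. In the M-current class Kcnq5 had 16.6 ± 1.17 and Kcnq3, a subunit of the M-channel, 3.80 ± 0.842. Kcnq1, the cardiac and epithelial member, had 0.119 ± 0.0444. Kcnh3 led the EAG, ERG and ELK class with 13.9 ± 1.54, ahead of Kcnh1 with 10.1 ± 0.571 and Kcnh7 with 5.47 ± 0.808, and Kcnh8 was lowest with 0.172 ± 0.0376.

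The channels opened by calcium or sodium were less abundant. Kcnma1, the pore of the large-conductance BK channel, had 6.38 ± 1.398 CPM per kb, the sodium-activated Kcnt1 4.93 ± 0.5996, and Kcnu1, known as a sperm channel, 0.842 ± 0.102. Of the small-conductance SK genes, which carry the afterhyperpolarisation, Kcnn2 had 8.09 ± 0.425, Kcnn1 3.77 ± 0.323 and Kcnn3 0.752 ± 0.148. Kcnn4, the intermediate-conductance channel of blood cells, had 0.0367 ± 0.0138.

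Among the 14 Kir genes, Kcnj10, the Kir4.1 channel of astrocytes, was highest with 44.1 ± 3.15 CPM per kb. The G-protein-gated subunits followed in the order Kcnj3 with 33.6 ± 1.43, Kcnj9 with 23.7 ± 1.78 and Kcnj6 with 6.17 ± 1.18. Kcnj15 was the lowest of all 87 genes at 0.0102 ± 0.00834. Kcnk1 (TWIK-1) made up 64.9% of the K2P sum with 34.6 ± 2.95, while Kcnk2 (TREK-1) had 8.59 ± 0.719 and Kcnk9 (TASK-3) 0.952 ± 0.200. Kcnk7 was the lowest K2P gene with 0.0657 ± 0.0354.

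Auxiliary subunits held 31.2% of the summed level. Kcnab2, the beta subunit that carries Kv1 channels to the axon, was the most abundant of all 87 genes with 129 ± 8.12 CPM per kb, and Kcnab3 was lowest of its class with 11.2 ± 0.603. Kcnip2, a calcium sensor that binds Kv4 channels, had 65.1 ± 4.46, Kcnip4 18.8 ± 1.54 and Kcnip1 3.13 ± 0.186. Of the BK beta subunits, neuronal Kcnmb4 had 4.54 ± 0.557 and smooth-muscle Kcnmb1 0.364 ± 0.0902. The single-span Kcne genes were low throughout, from 2.09 ± 0.419 for Kcne1l to 0.0898 ± 0.117 for Kcne2.

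Genes side by side on a chromosome differed to varying degrees in level. On chromosome 3, Kcna2 and Kcna3, 63075 bases apart, differed 1.42-fold in level per kb, whereas Kcna2 and Kcna10, 68050 bases apart, differed 218-fold, with 12 counts in all for Kcna10. Kcnj10 and Kcnj9 on chromosome 1, 11891 bases apart and expressed in astrocytes and neurons respectively, differed 1.86-fold. Kcna1 and Kcna6 on chromosome 6 differed 4.66-fold, where 39.6% of the exonic length of Kcna6 overlaps another gene. Kcnj16 and Kcnj2 on chromosome 11 differed 2.52-fold.

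The count minimum was passed narrowly by Kcna10 with 12 counts, Kcnv2 with 14 and Kcnj15 with 18. Below it were Kcne1 with 4 counts, Kcnj1 and Kcnk15 with 2 each, Kcnk16, Kcnk18 and Kcnmb3 with 1 each, and Kcna7 with 0. All 7 lay under 3 counts in every library.

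In the comparison of FD with CD mice, no potassium channel gene changed at an adjusted p under 0.1 (edgeR quasi-likelihood test with Benjamini-Hochberg adjustment over all genes). The count was 0 of 87, where 14 of 20589 genes (0.068%) passed. At an unadjusted p under 0.05, 3 of the 87 genes stood below the threshold, 1 higher and 2 lower in FD mice, beside 2.59% of all genes. DESeq2 also called 0 of the 87 genes after adjustment and had 3 under 0.05 before it, beside 0.0874% and 1.77% of all genes. For no potassium channel gene did the values of the 5 FD and 6 CD mice lie apart without overlap, which occurred for 0.505% of all genes. The median log2 fold change was -0.01 over the 87 genes and 0.00 over all genes, with 38 genes higher and 49 lower in FD mice.

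The intervals show how large a difference could have gone unseen. Among the 73 genes of at least 1 CPM, the 95% interval of the log2 fold change lay within ± 0.25 for 33 genes, within ± 0.5 for 64 and within ± 1 for all 73. For the 10 most abundant genes per kb the intervals ran from -0.41 to 0.16 at their widest. The broadest interval belonged to Kcng3, a silent subunit, with a bound of 0.77. The fitted values lay between -0.37 for Kcnk12 and 0.23 for Kcnj8, the pore of the vascular ATP-sensitive channel, whose own p was 0.247 before adjustment.

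**Figure D2:**
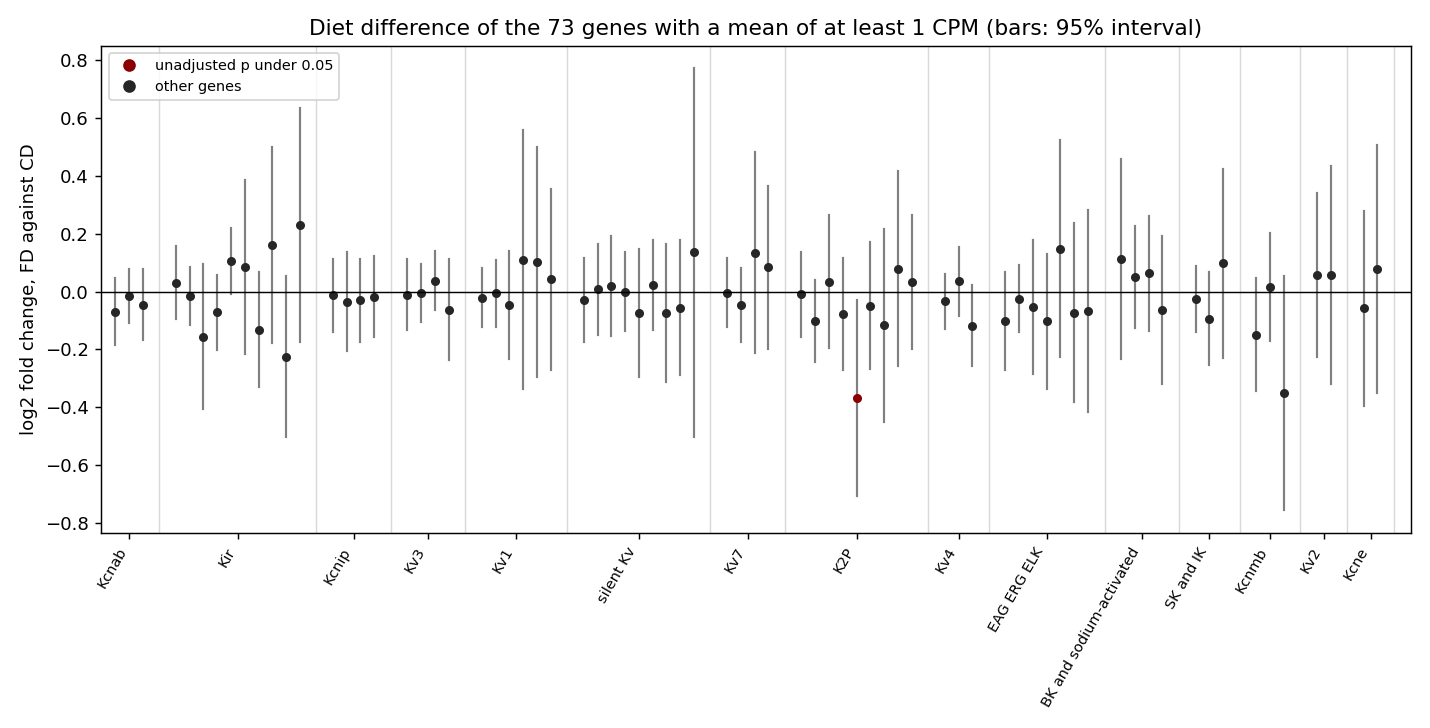
Log2 fold change of FD against CD mice with its 95% interval for the 73 genes of at least 1 CPM, ordered by subfamily and, within each, by level. The points lie between -0.37 and 0.23, and the one gene in red, Kcnk12, has an unadjusted p under 0.05.

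Summed over each subfamily, levels in CD and FD mice overlapped in every class. The Kir sum was 153.5 to 151 CPM per kb for CD to FD means, the Kv1 sum 80.5 to 80.0, the Kv3 sum 81.5 to 81.0, the Kv4 sum 51.3 to 50.7 and the Kv7 sum 62.7 to 62.5. SDs between mice were 3.40 and 9.27 for Kir, 3.73 and 1.68 for Kv1, and 1.75 and 1.53 for Kv4. The widest ratio of FD to CD means was 0.932, for the BK beta subunits, whose CD mice ranged from 6.39 to 8.10 and FD mice from 6.35 to 7.73. The auxiliary subunits summed to 286 ± 13.9 in CD mice (SD, n = 6) and 277 ± 14.4 in FD mice (SD, n = 5). All 3 Kcnab genes and all 4 Kcnip genes had fitted values below 0, between -0.07 and -0.01, none of which passed the test.

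Kcnk12, a K2P subunit that makes little current by itself, had 2.30 CPM in the lowest, 3.51 in the median and 4.13 in the highest CD mouse. In the 5 FD mice it had 3.49, 2.38, 2.59, 1.77 and 2.57. Only FD male 2 lay below the CD range. The other 4 FD mice lay within it, above CD female 2, the lowest CD mouse. Apart from FD female 1, the FD mice lay below all CD mice but CD female 2. The log2 fold change was -0.37 ± 0.16 (SE), with p = 0.0344 before and 1.0 after adjustment in edgeR, and the exact permutation test over the mice (two-sided) gave p = 0.0693. With each mouse left out in turn this exact permutation p lay between 0.0238 (without CD female 2) and 0.151 (without CD female 3), and 9 of the 11 values were above 0.05.

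Kcnj14, the strong inward rectifier Kir2.4, had 0.533, 0.650 and 0.790 CPM in the lowest, median and highest CD mouse and 0.814, 1.52, 0.685, 0.848 and 0.911 CPM in the FD mice. All FD mice but one lay above the CD mice, at 7 to 35 counts per mouse. The log2 fold change was 0.51 ± 0.22 (p = 0.0349 unadjusted and 1.0 adjusted in edgeR, exact permutation p = 0.0195). Without FD male 1, the highest mouse, the fold change was 0.28 and the exact permutation p was 0.0571.

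Kcne2, an epithelial beta subunit found in the choroid plexus, was barely detected. It had 0.0677, 0.166 and 0.732 CPM in the lowest, median and highest CD mouse and 0.145, 0.0476, 0, 0.0707 and 0 CPM in the FD mice. These values stand for 0 to 11 reads per mouse, and groups overlapped. The fitted log2 fold change was -1.64 ± 0.76 (p = 0.0456 unadjusted and 1.0 adjusted in edgeR, exact permutation p = 0.0368). The fold change was -0.60 in the 8 libraries with fewer multiply aligned reads, -1.10 without CD female 3 and -2.70 without FD female 1. In 7 of the 11 fits that left out 1 mouse the exact permutation p was above 0.05. It was 0.0635 without CD female 1, CD male 2 or CD female 3 (the mouse with 11 reads), 0.0667 without FD male 1, 0.0524 without FD male 2, and 0.0857 without FD female 2 or FD female 3.

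**Figure D3:**
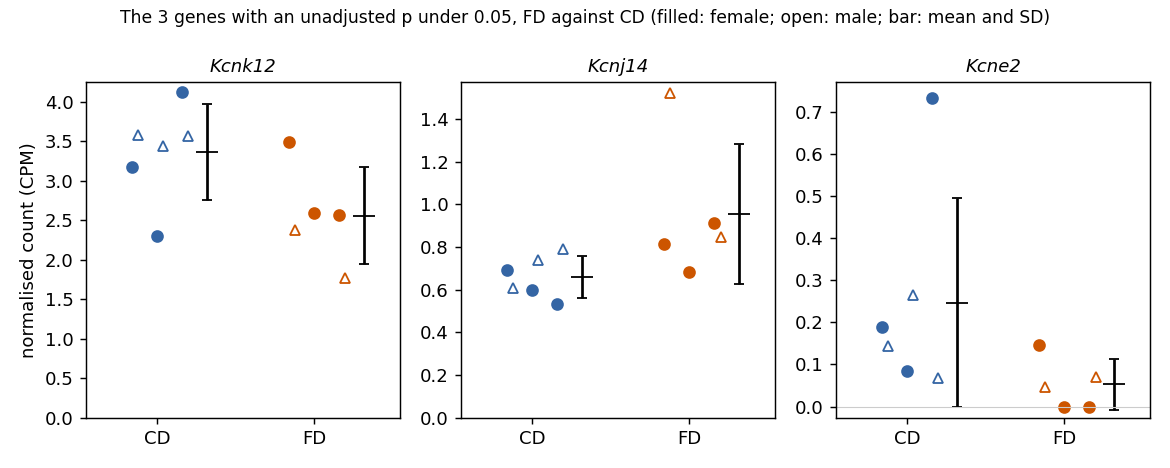
Normalised counts (CPM) of Kcnk12, Kcnj14 and Kcne2 in each of the 6 CD mice (blue) and 5 FD mice (orange), with females filled and males open, and the mean with its SD as a bar. Values of the groups overlap in each panel, and Kcne2 lies between 0 and 0.732 CPM.

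The next genes by p-value were Kcnq1 with a log2 fold change of 0.56 ± 0.27 (SE), the astrocytic Kcnj16 with 0.10 ± 0.05, Kcnmb1 with -0.35 ± 0.19, Kcnv2 with 1.23 ± 0.69, Kcnd1 with -0.12 ± 0.07, Kcnj12 with -0.22 ± 0.13 and Kcnh8 with -0.34 ± 0.20. Their unadjusted p-values ran from 0.0588 to 0.112 and their adjusted p was 1.0 in edgeR. Kcnj16 was measured most precisely among these, at 27.9 ± 0.974 CPM in CD mice (SD, n = 6) and 29.98 ± 1.375 in FD mice (SD, n = 5). Kcnq1ot1 runs antisense over 2.96% of the exonic length of Kcnq1, and only in that stretch can reads of these genes not be told apart.

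The count of genes under an unadjusted 0.05 was 0 without CD female 3, 1 without CD male 1 and 1 without FD male 1, beside 2.42%, 2.7% and 2.71% of all genes, so that it stayed near the share over all genes. It was also 1 in the 8 libraries with fewer multiply aligned reads, beside 2.77% of all genes, where the gene was Kcnk9, and 0 genes were called after adjustment there. With mice of the same sex and number taken as 5 pairs (the replicate block), 12 genes were under 0.05, beside 6.76% of all genes, and 0 were called after adjustment. Among these 12 were Kcnk12, Kcnj14, Kcne2, Kcnq1, Kcnmb1, Kcnj13, Kcnj4, Kcna2, Kcnj6, Kcnma1 and Kcnq3. The last 4 of these, all higher in FD mice in the paired fit by 0.17 to 0.26 (log2), are also among the genes that were low in the libraries that stood apart, of which 2 are CD and 1 is FD.

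Transcripts of genes whose proteins work with these channels were measured in the same way. Of 28 listed partners, among them Dpp6 and Dpp10 of Kv4 channels, the calmodulins, the sulfonylurea receptors and the Hcn pacemaker channels, 26 were tested. None was called between FD and CD mice and 0 had an unadjusted p under 0.05, beside 0.068% and 2.59% of all genes. Their median log2 fold change was -0.02. Dpp6, which traffics Kv4 channels to the membrane, had 449 ± 17.9 CPM in CD mice (SD, n = 6) and 436 ± 19.2 in FD mice (SD, n = 5).

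Whether the diet difference itself varied between the sexes was tested by the interaction of diet and sex. No potassium channel gene was called, and 0 of 20589 genes were (0.0%). DESeq2 called 0 of the 87 genes as well. At an unadjusted p under 0.05 there was 1 of 87 genes, beside 1.9% of all genes. The count rose to 10 without CD female 2, 7 without FD female 3 and 6 without FD male 1, beside 3.98%, 2.96% and 3.21% of all genes. It was 5 without CD female 1, 3 without FD female 2 and 2 without CD male 1, CD male 2 or CD female 3, beside 1.79% to 2.06% of all genes. A group left with 1 mouse was taken to vary like the others in these fits. Kcna4 stayed under 0.05 in each of the 11 fits that left out 1 mouse. This gene was Kcna4, with an interaction of -0.33 ± 0.10 on the log2 scale (edgeR adjusted p = 1.0, unadjusted 0.00344). In the CD mice males had 42.2, 40.7 and 41.6 CPM of Kcna4 and females 46.5, 44.4 and 44.5, while in the FD mice males had 34.8 and 33.5 and females 47.0, 45.8 and 47.8. The next smallest p-values belonged to Kcnj11, the pore of the ATP-sensitive channel of neurons, with -0.33 ± 0.16 (edgeR adjusted p = 1.0, unadjusted 0.0589), and Kcnk12 with -0.61 ± 0.31 (unadjusted 0.0658). The fitted interaction was below 0 for 61 of the 87 genes, with a median of -0.10, where the median over all genes was -0.02. In the 8 libraries with fewer multiply aligned reads, with a single CD female, it was below 0 for 57 of 86 genes, with a median of -0.14 against -0.03 over all genes, 6 genes were under an unadjusted 0.05, beside 2.89% of all genes, and 0 were called after adjustment.

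In the main fits of all mice, more genes were called between males and females than between the diets. This order depended on the model. With the share of reads outside genes as a covariate, 0.0437% of all genes were called between the sexes and 0.107% between the diets. In the 8 libraries with fewer multiply aligned reads the shares were 0.065% and 0.02%. The main fit of the sexes is given first. With diet as covariate, 8 of 87 potassium channel genes were called at an adjusted p under 0.1, beside 6.11% of all genes, and 25 had an unadjusted p under 0.05, beside 20.3%. Of the 8 genes, 4 were higher in males, namely Kcnh7, Kcnj6, Kcnma1 and Kcnq3, and 4 were lower, namely Kcna4, Kcnj2, Kcnh2 and Kcnj4. Their adjusted p-values lay between 0.0631 and 0.0939 in edgeR, just inside the threshold. Males and females lay apart without overlap for Kcna4 and Kcna6, 2 of 87 genes, beside 1.78% of all genes. None of the 14 auxiliary subunits was called.

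The number of calls moved with single mice, as it did over all genes. Left out one at a time, the count fell to 0 without CD male 1, CD male 2, CD female 3, FD male 2 or FD female 3, to 1 without CD female 1 or FD female 1, to 2 without FD male 1 and to 3 without CD male 3, while the share over all genes fell to between 0.0883% and 2.89%. It rose to 17 without FD female 2 and to 21 without CD female 2, beside 13.5% and 15.8% of all genes. In the 8 libraries with fewer multiply aligned reads, 1 gene (Kcnj2) was called, beside 0.065% of all genes, and 11 had an unadjusted p under 0.05, beside 6.54%. Within CD mice alone and within FD mice alone the count was 0, beside 0.0258% and 0.0262% of all genes. The share of reads outside genes also moved with sex, from 8.95% to 11.03% in males and from 7.01% to 10.5% in females, and with this share as a covariate the count was 0, beside 0.0437% of all genes. The log2 fold changes were then -0.65 for Kcnj2, -0.23 for Kcna4, -0.22 for Kcnh2 and -0.14 for Kcnj4, and lay between 0.12 and 0.25 for the genes called higher in males.

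Kcnj2, the strong inward rectifier Kir2.1, was lower in males. It had 12.2, 19.0 and 21.1 CPM in the lowest, median and highest female, and 12.2, 14.1, 11.9, 12.2 and 14.5 CPM in the males. All females but CD female 1 lay above all males. The log2 fold change of males against females was -0.47 ± 0.11 (adjusted p = 0.0665 in edgeR), and in the 8 libraries it was -0.53 ± 0.09 (adjusted p = 0.0661).

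Kcna4, the A-type subunit of axons and terminals, was lower in males with no overlap. Females had 44.4, 46.1 and 47.8 CPM (lowest, median, highest) and males 42.2, 40.7, 41.6, 34.8 and 33.5 CPM. The log2 fold change was -0.27 ± 0.06 (adjusted p = 0.0631 in edgeR), and -0.30 ± 0.07 in the 8 libraries (adjusted p = 0.364). The direction and size thus held without the 3 libraries, while the adjusted p did not pass there. In CD mice alone the log2 fold change was smaller, at -0.12 ± 0.07. The males with 34.8 and 33.5 CPM were the FD males.

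Kcnh2, the ERG channel, was at 25.8 ± 2.27 CPM in females (SD, n = 6) and 21.3 ± 3.17 in males (SD, n = 5), with overlap. Its log2 fold change was -0.29 ± 0.08 with all libraries (adjusted p = 0.0808 in edgeR) and -0.27 ± 0.11 in the 8 libraries. Kcnj4 (Kir2.3) was at 66.1 ± 9.94 CPM in females and 54.7 ± 8.03 in males. Its difference went from -0.31 ± 0.09 (adjusted p = 0.0903 in edgeR) to -0.16 ± 0.10 without the 3 libraries.

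The genes that were higher in males showed another pattern. Kcnma1 had 114, 118 and 121 CPM in FD female 1, FD female 2 and CD female 2, within the male range of 114 to 128, but 71.1, 66.4 and 79.7 in CD female 1, CD female 3 and FD female 3. Kcnq3 likewise had 60.1 to 62.4 CPM in the first 3 females, 59.3 to 69.6 in males, and 35.3 to 41.1 in the 3 libraries that stood apart. Kcnj6 had 46.0 to 54.0 CPM, 49.7 to 56.7 CPM and 32.1 to 36.3 CPM in the same order, and Kcnh7 had 80.2 to 86.8, 82.8 to 97.6 and 61.6 to 73.8. With the 3 libraries left out, the log2 fold change of Kcnma1 went from 0.42 ± 0.13 to 0.08 ± 0.05, that of Kcnq3 from 0.42 ± 0.13 to 0.07 ± 0.06, that of Kcnj6 from 0.37 ± 0.11 to 0.08 ± 0.07 and that of Kcnh7 from 0.32 ± 0.08 to 0.16 ± 0.06. Adjusted p-values then lay between 0.722 and 0.822 in edgeR.

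**Figure D4:**
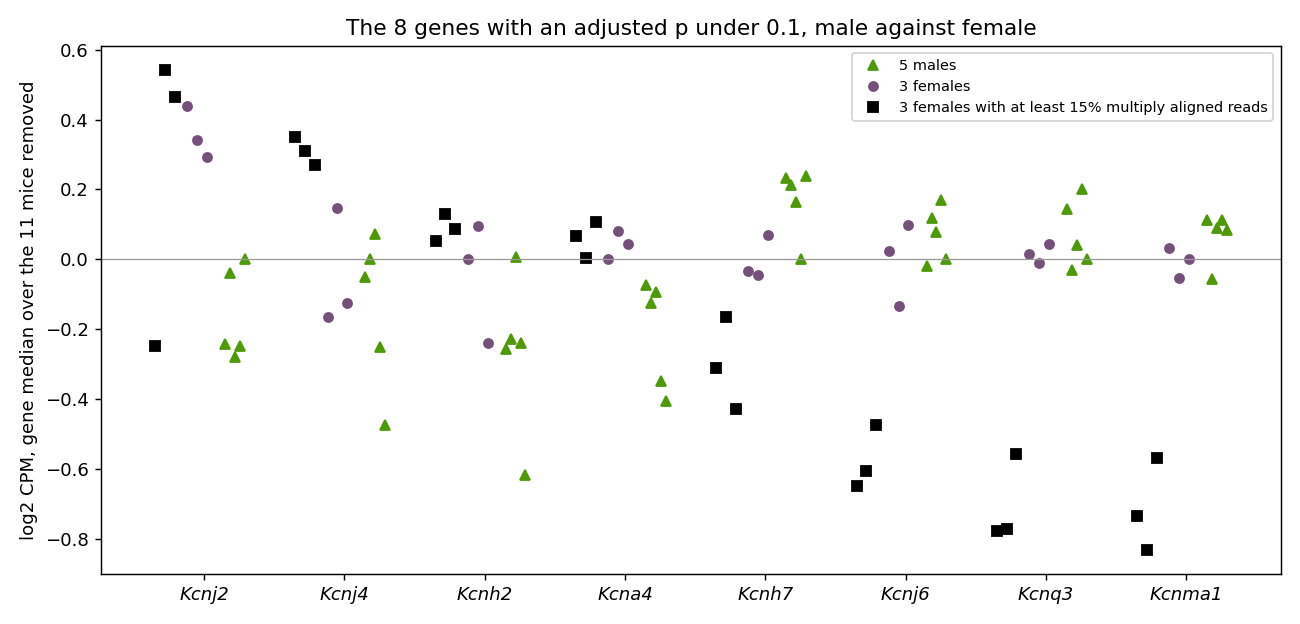
Each mouse's log2 CPM of the 8 genes called between the sexes, with the median over the 11 mice removed, for 5 males (triangles), 3 females (circles) and the 3 females with at least 15% multiply aligned reads (squares). For Kcnh7, Kcnj6, Kcnq3 and Kcnma1 the squares lie below the other mice, while for Kcna4 the squares and circles lie together above the triangles.

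Kcna2, the axonal Kv1.2 subunit, showed the same split without passing the threshold between sexes. It had 30.4 to 43.1 CPM in the 3 libraries, 69.2 to 74.7 in the other 3 females and 68.9 to 76.3 in males, and its log2 fold change of 0.48 ± 0.18 (adjusted p = 0.136 in edgeR) was 0.01 ± 0.05 in the 8 libraries. The silent subunit Kcng3 had 0.828 to 1.07 CPM in the 3 libraries and 1.62 to 3.35 in the other 8, and its log2 fold change went from 0.75 ± 0.25 (adjusted p = 0.104 in edgeR) to 0.25 ± 0.23. In all, 12 of the 87 genes had their 3 lowest values in these 3 libraries, which held for 7.94% of all genes, and 9 had their 3 highest values there, beside 8.28% of all genes. Among the 12 were Kcna2, Kcna3, Kcnb2, Kcng3, Kcnh5, Kcnh7, Kcnj6, Kcnk9, Kcnma1, Kcnn3 and Kcnq3. The 9 were Kcna6, Kcnab1, Kcng2, Kcnh3, Kcnip2, Kcnj4, Kcnk1, Kcnk7 and Kcnmb4.

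Exonic length moved with this split. Of the 9 genes of at least 1 CPM with 10 kb of exon or more, all 9 were fitted higher in males, with a median log2 fold change of 0.32, and their median deviation was -0.44 in CD female 1, -0.69 in CD female 3 and -0.54 in FD female 3, against -0.00196 to 0.14 in the other mice. Of the 42 genes under 5 kb, 13 were fitted higher in males and the median was -0.07. Across the 73 genes the Spearman correlation of exonic length with the log2 fold change between sexes was 0.435, as a description, since all genes share the same 11 libraries. Over 13346 protein-coding genes of at least 1 CPM it was 0.506, and 84.1% of the 1426 genes of at least 10 kb were fitted higher in males. The part of exonic length and of the multiply aligned reads in the sex and diet differences was not tested. In whole hippocampus, fewer cells of a type and less RNA per cell cannot be told apart.

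**Figure D5:**
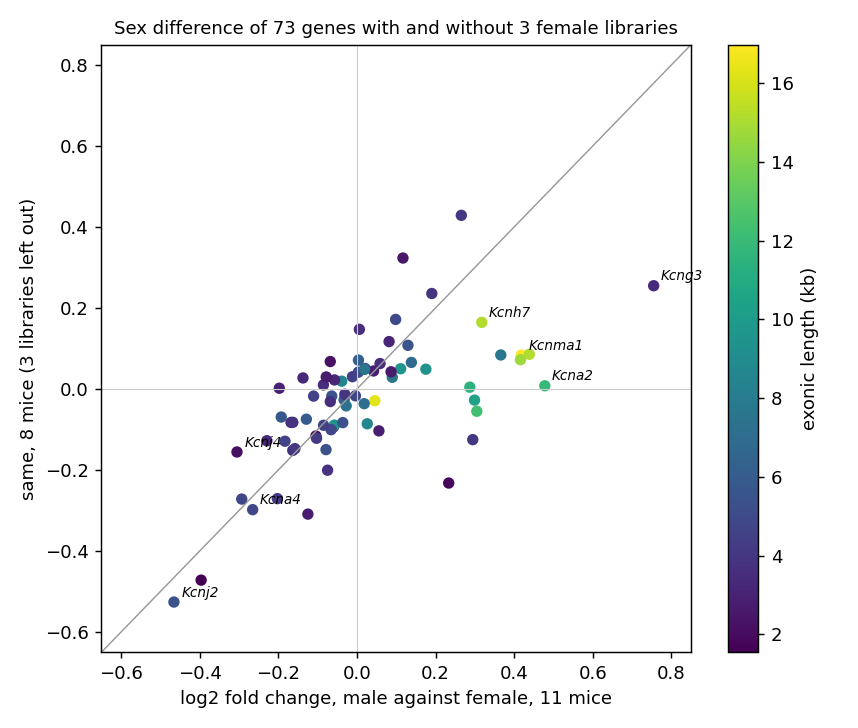
Log2 fold change of males against females for the 73 genes of at least 1 CPM in all 11 mice (x axis) and in the 8 mice left without 3 female libraries (y axis), coloured by exonic length in kb, with the line of equal values. Kcnj2 and Kcna4 lie near the line, while Kcna2 and Kcnma1 drop from 0.48 and 0.42 to 0.01 and 0.08.

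Some potassium channel genes are known as genes of non-neuronal cells, and 6 of them were set against marker lists of these cells over the 11 mice. Kcne2 followed the choroid plexus markers with r = 0.775 (permutation p = 0.0054, 0.0324 adjusted over the 6 relations) and Spearman's rho = 0.743 (permutation p = 0.0115, 0.0689 adjusted). Without the 2 mice farthest from the marker median, CD female 3 and FD female 2, r was 0.413, so that the relation rests on those mice. The summed choroid plexus markers were 205 to 350 CPM in CD mice and 205 to 263 in FD mice. Enpp2 alone had 165 to 254 CPM over the 11 mice, so that these sums mostly reflect that gene. The relation itself was taken with the mean log2 CPM of the list. Transthyretin (Ttr), a secreted protein of the choroid plexus, had 54.7 CPM in CD female 3 and 3.35 in FD female 2. The part of choroid plexus in the diet difference of Kcne2 was not tested.

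Kcnj13, the Kir7.1 channel of the choroid plexus, showed no such relation (r = 0.0284, permutation p = 0.936, rho = -0.0818). Its highest value, 1.202 CPM in FD male 2, came with 17 counts. Gigyf2 overlaps 49.1% of its exonic length, and reads in that stretch cannot be told apart without strand. For Kcnk13 and microglial markers r was 0.610 (permutation p = 0.0472, adjusted 0.142) and rho 0.646. For Kcnj16 and Kcnj10 and astrocyte markers r was 0.565 and 0.329 (permutation p = 0.0710 and 0.342, adjusted 0.142 and 0.410), with rho of 0.582 and -0.0818, and for Kcnj8 and mural cell markers r was 0.317 (permutation p = 0.340, adjusted 0.410) and rho 0.255. Without the 2 farthest mice these 4 values of r were 0.750, 0.567, -0.154 and 0.0756 in the same order. For Kcnj13 it was 0.162.

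The steadiest genes over the 11 mice, among those of at least 1 CPM, were Kcnab1, Kcnd2, Kcnj3, Kcnc1, Kcna1 and Kcnc2, with an SD of log2 CPM from 0.05 to 0.07. The most variable were Kcng3 with 0.62, Kcna2 with 0.48, Kcna3 with 0.41, Kcnj8 with 0.39, and Kcnh5 and Kcnb2 with 0.37 each. These last genes other than Kcnj8 are among those low in the 3 libraries. The median SD was 0.16 over the 73 genes and 0.13 over 14437 genes of at least 1 CPM.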

How the data were processed

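Hippocampal RNA of 11 mice was sequenced as single-end reads of 50 bp. After trimming, the authors mapped the reads to GRCm38 with STAR, and tallied uniquely mapped reads for each gene. The study names featureCounts for this step, whereas the summary lines of the files, from which the shares of multiply aligned reads and of reads outside genes were taken, have the form of HTSeq. The deposited values are raw counts per gene and mouse. The annotation release and the strand setting are not given in the sources used here. Reads in the stretches that overlapping or antisense genes share cannot be told apart. Gene names, positions and exonic lengths came from GENCODE M21, which held 94.91% of the 38293 gene identifiers. Groups, sexes and numbers of mice were taken from the labels. Genes with at least 10 counts in total were normalised with TMM and tested with the quasi-likelihood test of edgeR 4.0.16 in R 4.3.3. FD mice were compared with CD mice without covariates, males with females with diet as covariate, and the interaction of diet and sex in a model with both, with adjustment over all 20589 genes and a threshold of 0.1 as in the study. Standard errors are the log2 fold change divided by the square root of F. Log2 CPM had a prior count of 2. DESeq2 1.42.0 was an alternative, as were other size factors, filters, covariates, single-sex and single-diet fits and the removal of each mouse. The fits were tested on simulated data with known changes. The members, the lists of partners and markers and the tests were chosen with earlier results of these data known. Named genes were those with the smallest p in each comparison, all called, the highest and lowest of each subfamily, a fixed set of hippocampal channels, genes linked to glia, vessels or choroid plexus, and those next to the count minimum. Kcna3, Kcna6, Kcnab1, Kcnb2, Kcng2, Kcng3 and Kcnh5 fall outside that rule and were named after their values were seen, and Kcna7, Kcnk16, Kcnk18 and Kcnmb3 complete the genes under the count minimum. Some members and sequences are not reported here.

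Mice of the same sex and number were checked for pairing. With diet means removed, the log2 CPM deviations of the 5 pairs correlated with r from 0.307 to 0.54. Mice of the same sex but another number had r from -0.0628 to 0.526. The ranges overlap, so that the check cannot show that the numbers pair mice. With sex also removed, r was 0.00515 to 0.386 for the 5 pairs and -0.403 to 0.22 for the other same-sex mice. The paired fit is given where it changes a count. No pair of libraries within a diet group was a duplicate, since the chi-square of their counts per degree of freedom was 4.134 or more. Intervals and p-values measure the spread between these mice, and the floor of 3 counts covers counting error only.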

Additional observations from a re-analysis of the deposited data

Results flagged for a closer look

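Single mice lay far from the others of their diet group, by a gap larger than Dixon's 95% limit, in 12 of 150 groups looked at, and chance gives about 1 in 20. Of these, 4 were low values of FD female 3, one of the libraries that stood apart: Kcna2 with 43.1 CPM (68.9 to 74.0 in the other FD mice), Kcnma1 with 79.7 (114 to 128), Kcnq3 with 41.1 (60.1 to 69.6) and Kcnt1 with 37.5 (48.6 to 51.6). The same mouse was high for Kcnk1 with 88.8 CPM (72.5 to 76.4). FD female 1 was high for Kcnj10 with 285 CPM (225 to 239) and for its neighbour Kcnj9 with 113 CPM (94.7 to 96.9). FD male 1 was low for Kcnd1 with 11.9 CPM (13.4 to 14.0). Among CD mice, CD female 1 was low for Kcnq5 with 108 CPM (128 to 140) and high for the silent Kv sum with 72.6 CPM per kb (63.0 to 65.9), CD female 3 was high for Kcna10 with 0.2 CPM from 3 counts, and CD male 3 was high for the Kv3 sum with 84.7 CPM per kb (80.0 to 81.5).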

How the results depend on the processing

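No setting called a potassium channel gene between FD and CD mice or for the interaction after adjustment. The count under an unadjusted 0.05 between the diets, 3 with all mice, was 12 with the replicate block (pairs) and 1 in females. It was 6 in males and 1 in the 8 libraries with under 15% multiply aligned reads (chosen after seeing the data). The shares over all genes were 6.76%, 2.29%, 3.93% and 2.77% in this order. Without single mice the count was 0 to 4, beside 2.37% to 4.13%. Genes without overlap of FD and CD mice, 0 with all, numbered 5 with the replicate block and 5 in females. They numbered 18 in males and 1 in the 8 libraries. These counts stood beside 7.97%, 6.71%, 18.6% and 2.06% of all genes. Leaving out single mice gave 0 to 2, beside 0.659% to 0.957%. The median log2 fold change was 0.0196 in females and -0.0418 in males. Between males and females the 8 calls became 21 with no count filter and 11 with DESeq2, beside 10.1% and 9.92% of all genes. They became 0 with the share of reads outside genes as covariate, 0 in CD mice, 0 in FD mice and 1 in the 8 libraries. The shares over all genes were then 0.0437%, 0.0258%, 0.0262% and 0.065%. Without single mice the calls numbered 0 to 21, beside 0.0883% to 15.8%. Under an unadjusted 0.05, 25 genes became 7 with the share of reads outside genes as covariate and 18 in CD mice. They became 10 in FD mice and 11 in the 8 libraries. The shares over all genes were 7.46%, 13.9%, 6.93% and 6.54% in this order, against 20.3% in the main fit. Without single mice the genes under 0.05 numbered 17 to 30, beside 15.5% to 25% of all genes. The exact p ranged without single mice from 0.0238 to 0.151 for Kcnk12, 0.00476 to 0.0571 for Kcnj14 and 0.019 to 0.0857 for Kcne2. The r of Kcne2 ranged from 0.596 to 0.952 and that of Kcnk13 from 0.569 to 0.734, that of Kcnj13 from -0.14 to 0.134 (-0.0156, -0.14 and -0.0426 without CD male 2, CD female 2 and FD male 1) and that of Kcnj10 from -0.259, without FD female 1, to 0.541. The log2 fold changes of the 10 genes named first between the diets and the 8 called between the sexes kept their direction in every setting run. The causes of these changes were not tested. Genes with fewer than 10 counts per mouse, such as Kcne2, limit what the depth can show.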
